A study of Mus musculus with 2 samples.

Results

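Histone genes were described here as a family across total RNA libraries from mouse heart. The members were every gene whose symbol starts with Hist and a digit and that has a protein-coding transcript, together with H2afx, H2afz, H2afv, H2afy, H2afy2, H3f3a, H3f3b, H1f0 and H1fx. This rule gave 76 of 55536 annotated genes, of which 67 were replication-dependent genes and 9 were variant genes. The 67 are called replication-dependent by their Hist symbol alone. When they are transcribed in heart and how their mRNA ends was not tested. Another 3 genes with a Hist symbol had no protein-coding transcript and were left out. The tissue was heart from adult male mice of the 5xFAD/CAST strain, described in the labels as 5xFAD X Cast, aged 8 to 10 months. 5xFAD is a transgenic line carrying mutant human amyloid precursor protein and presenilin transgenes under a neuronal Thy1 promoter, and CAST mice are an inbred strain derived from wild mice; the labels do not give the transgene status of each sample. The 2 libraries, called library 2 and library 1, form 1 group, so no condition was compared. Both are labelled as biological replicates and carry separate tissue sample identifiers, but the same donor identifier, so whether they come from separate animals is not known. Values are TPM, which is abundance per transcript length scaled to the library total, and SD is over the 2 libraries throughout.

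Histones package DNA: pairs of H2A, H2B, H3 and H4 form the core of the nucleosome, and the linker histone H1 binds where DNA enters and leaves it. Replication-dependent genes lie in clusters, are transcribed mainly in S phase and usually lack introns. Their mRNA usually ends without a poly(A) tail, just after a stem-loop that is bound by the stem-loop binding protein Slbp and cut with the help of the U7 small nuclear RNA. Variant genes are transcribed outside S phase as well, are usually spliced and polyadenylated, and supply histones to chromatin of cells that no longer divide. Most cardiac muscle cells in the adult heart have left the cell cycle. Total RNA libraries can hold transcripts without a poly(A) tail.

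The stem-loop was searched in the GENCODE M21 transcripts on the sense strand after the stop codon, as CTTTTNAG inside a 16-base hairpin with at least 5 of 6 paired stem positions. It was found in 44 of 67 replication-dependent genes and in 1 of 9 variant genes, H2afx, which encodes the H2A variant phosphorylated at DNA breaks. Of the 23 replication-dependent genes without a match, 15 had fewer than 25 annotated bases after the stop codon in every protein-coding transcript. Among 21825 other protein-coding genes, 451 (2.07%) had a match anywhere in a protein-coding transcript. The members below are the highest gene with a stem-loop in each replication-dependent family, followed by the H4 gene with the next highest level and by H2afx. Capitals mark the stem-loop, and lower case marks the 5 bases on either side, written 5′ to 3′ on the transcribed strand.
Hist1h1c: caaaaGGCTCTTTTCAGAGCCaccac
Hist2h2aa2: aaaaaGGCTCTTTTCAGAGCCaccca
Hist1h2bg: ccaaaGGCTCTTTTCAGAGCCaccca
Hist1h3e: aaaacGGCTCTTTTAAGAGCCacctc
Hist1h4h: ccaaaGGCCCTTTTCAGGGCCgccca
Hist1h4d: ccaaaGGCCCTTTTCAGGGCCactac
H2afx: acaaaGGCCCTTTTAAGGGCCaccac
All 7 lie in the annotated 3′ UTR of the gene. In mm10 the capital letters are at chr13:23739512-23739527 on the plus strand for Hist1h1c, chr3:96239784-96239799 on the minus strand for Hist2h2aa2, chr13:23571843-23571858 on the plus strand for Hist1h2bg and chr13:23561903-23561918 on the minus strand for Hist1h3e. They are at chr13:23531458-23531473 on the plus strand for Hist1h4h, chr13:23581950-23581965 on the plus strand for Hist1h4d and chr9:44335240-44335255 on the plus strand for H2afx. The hairpin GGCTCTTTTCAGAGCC occurred in 26 genes, in the H1, H2A, H2B and H3 families. The hairpin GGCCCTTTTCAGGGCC occurred in 7 genes, all of the H4 family. The H4 genes with a stem-loop, 11 of 13, carried none of the GGCTC hairpins.

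The annotated end of the transcript was often far beyond the stem-loop. Of the 44 replication-dependent genes with a match, 22 had at most 100 annotated bases after it and 22 had more. Hist1h4h had 46 bases after the stem-loop and Hist2h2aa2 had 35, whereas Hist1h1c had 840, Hist1h4d had 770 and Hist1h1e had 1153. The longest tail was that of Hist1h1d, with 4884 bases. A longer annotated transcript lowers the TPM for a given count, so the levels below depend on these ends. The division at 100 bases was chosen with the values known.

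The libraries held 36926511 expected counts in library 2 and 39668202 in library 1 over annotated genes. Histone genes took 18601 counts in library 2 and 20774 in library 1. Heart muscle markers were high, with the 5 listed genes (Myh6, Myl2, Actc1, Tnnt2 and Tnni3) between 3365 and 7756 TPM. At least 1 TPM in both libraries was found for 9 of 9 markers of endothelium, fibroblasts and macrophages, against 48.8% of nuclear protein-coding genes. The libraries are bulk tissue, in which fewer cells of a type and less RNA per cell cannot be told apart.

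Histone mRNA was present in the heart libraries from all 5 families, and most of it came from few genes. In sum the members reached 720 TPM in library 2 and 727 TPM in library 1, or 0.221% ± 0.001 of what all nuclear protein-coding genes reached. At least 1 TPM in each library was found for 50 of 76 members (65.8%), against 48.8% of 22015 nuclear protein-coding genes. These were 42 of 67 replication-dependent genes and 8 of 9 variant genes, among them H3f3b, H2afz and H1f0, the genes named as markers of the variants. The 5 highest members, H3f3a, Hist1h4h, Hist2h2aa2, Hist1h1c and H3f3b, held 52.8% of the summed TPM, and the 10 highest held 69.3%. Above 10 TPM were 17 members, 11 replication-dependent and 6 variant. Another 5 members had a mean above 1 TPM but a value below 1 in a library, and 3 members (Hist1h2aa, Hist1h2ba and Hist2h3c1) were listed at 0 in both libraries. The members nearest the level of 1 TPM were Hist1h4n (mean 0.975) and Hist1h2ab (0.955) below it and Hist1h2bb (1.05) and Hist1h1b (1.07) above it.

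**Figure D1:**
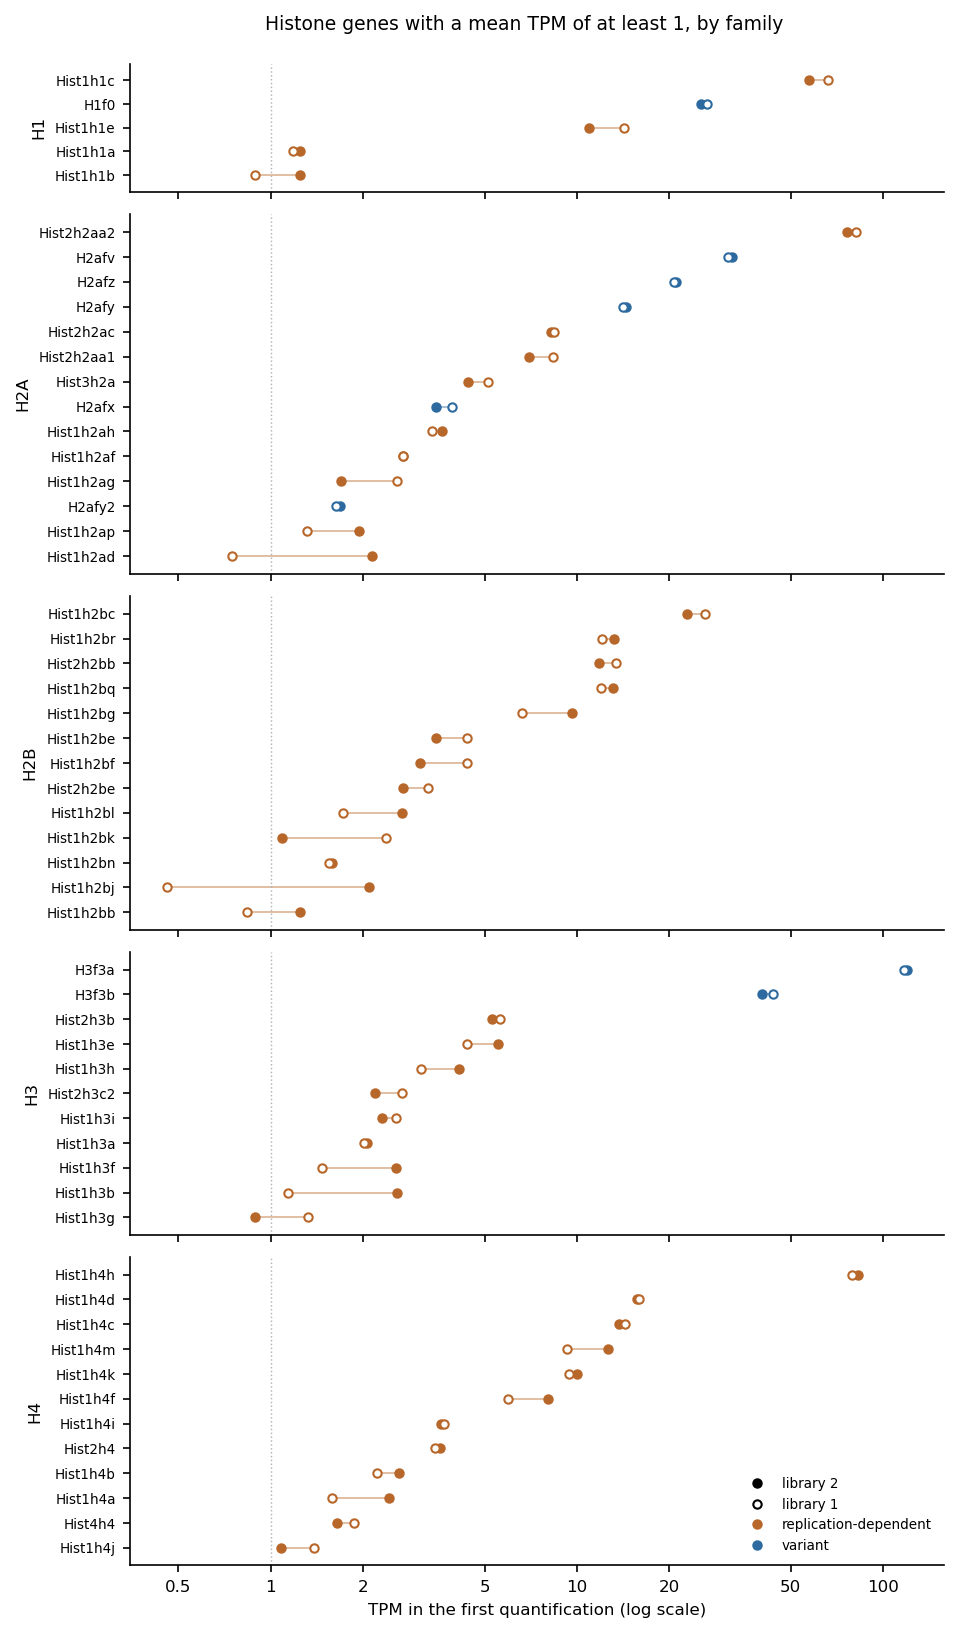
TPM in the first quantification (x axis, log scale) of the 55 histone genes with a mean of at least 1 TPM, by family and in order of mean; filled points are library 2, open points library 1, orange replication-dependent and blue variant genes. H3f3a leads at 120 and 117 TPM, and the points of library 2 and library 1 lie farthest apart for low genes such as Hist1h2bj at 2.09 and 0.46 TPM.

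The balance of replication-dependent and variant genes differed by family. Replication-dependent genes held 64.2% ± 0.1 of the summed histone TPM, at 462 TPM in library 2 and 467 TPM in library 1, and variant genes reached 259 and 260 TPM. In H3 the variant genes led, with 160 and 161 TPM in library 2 and library 1, against 29.1 and 24.9 TPM for the 12 replication-dependent H3 genes. Variants thus held 85.6% ± 1.4 of the H3 family. In H2A the variants held 38.5% ± 1.1 and in H1 they held 25.6% ± 1.6. H2B and H4 have no variant among the members. By family, H3 and H2A each held 25.9% of histone TPM, H4 held 21.3%, H1 held 14.3% and H2B held 12.6%. As a share of expected counts, which are not corrected for length, variants held 56.1% of H2A and replication-dependent genes held 54.3% of all histone counts. The order of families also differed by expected counts, with H3 at 27.9% and H1 at 27.7% of histone counts. H2A then held 21.3%, H4 held 12.96% and H2B held 10.2%, so the place of H1 and H4 depends on the correction for length.

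**Figure D2:**
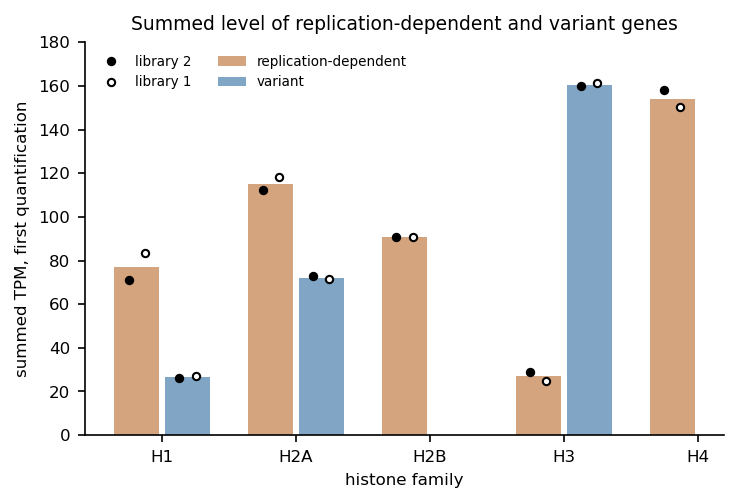
Summed TPM in the first quantification of replication-dependent (orange) and variant (blue) genes of each family; bars are means and points are library 2 (filled) and library 1 (open). H3 is the family in which the variant bar is the taller, at 161 TPM, against 27.0 TPM for replication-dependent genes.

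H1 proteins compact chromatin between nucleosomes. Hist1h1c, encoding linker histone H1.2, led the family with 57.2 TPM in library 2 and 66.4 TPM in library 1; it is a single-exon gene at chr13:23738808-23740367 on the plus strand. H1f0, encoding the replacement linker histone found in differentiated cells, had 25.5 and 26.5 TPM in library 2 and library 1. Hist1h1e followed with 11.0 TPM in library 2 and 14.3 TPM in library 1. These 3 genes held 59.6% ± 0.9, 25.2% ± 1.5 and 12.1% ± 1.2 of the H1 family. All of them were lower in library 2 than in library 1. The other 5 H1 genes lay between 0.04 and 1.25 TPM in every library: Hist1h1a and Hist1h1b near 1 TPM, Hist1h1d and the variant H1fx near 0.45 TPM, and the testis gene Hist1h1t at 0.04 TPM in library 2 and 0.07 TPM in library 1. H1f0 and H1fx shared no 100-base stretch with any other gene's transcripts, so their counts rest on sequence of their own.

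Among H2A genes, the highest value was that of Hist2h2aa2, at chr3:96239749-96240276 on the minus strand, with 76.3 TPM in library 2 and 81.6 TPM in library 1. Its copy Hist2h2aa1, on the plus strand at chr3:96245497-96246082, had 6.98 and 8.37 TPM. The coding sequences of these copies are identical over 390 bases, so the division of reads between them is uncertain. Together they had 83.2 TPM in library 2 and 89.9 TPM in library 1, and held 75.1% ± 1.5 of replication-dependent H2A. By expected counts they held 65.6% ± 0.4, and in the second quantification 74.3% ± 1.3. Hist2h2ac had 8.25 and 8.43 TPM, and Hist3h2a had 4.43 and 5.12 TPM. The other 14 replication-dependent H2A genes, all in the Hist1 cluster except Hist2h2ab, stayed at or below 3.64 TPM in each library. Hist1h2ah had 3.64 TPM in library 2 and 3.36 TPM in library 1, and Hist1h2af had 2.70 and 2.71 TPM. Hist1h2ag had 1.70 and 2.58 TPM, Hist1h2ap had 1.95 and 1.32 TPM, and Hist1h2ad had 2.15 and 0.75 TPM, with the widest gap between libraries at Hist1h2ad. Below a mean of 1 TPM, the highest were Hist1h2ab at 0.63 and 1.28 TPM, Hist2h2ab at 0.74 and 1.05 TPM and Hist1h2ak at 0.94 and 0.65 TPM. Hist1h2ae, Hist1h2ac, Hist1h2an, Hist1h2ai, Hist1h2ao and the testis gene Hist1h2aa were at or below 0.71 TPM in each library.

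The 5 H2A variants were all at least 1 TPM in both libraries. H2afv and H2afz encode the forms of H2A.Z, the variant placed at promoters and regulatory regions by the SRCAP and EP400 complexes. H2afv had 32.1 TPM in library 2 and 31.1 TPM in library 1, and H2afz had 21.03 and 20.73 TPM. H2afv thus held 60.2% ± 0.3 of the H2A.Z TPM in the first quantification, against 53.7% ± 3.1 in the second. Counting protein-coding transcripts only, the mean of H2afz was 16.4 TPM in place of 20.9 TPM. H2afv then held 65.8% ± 2.3, and it held 62.6% ± 3.3 of expected counts. The coding sequences share 79.2% of bases, and the translations differ at 3 of 128 residues. H2afy and H2afy2 encode macroH2A, which carries a large globular domain beyond its histone part and is enriched on silent chromatin. H2afy had 14.5 and 14.2 TPM in library 2 and library 1, with a mean of 7.22 TPM in place of 14.3 TPM when only protein-coding transcripts were counted. H2afy2 had 1.68 and 1.64 TPM, so H2afy held 89.6% of their sum over all transcripts. The share of H2afy was 81.3% with protein-coding transcripts only and 84.8% of expected counts. H2afx had 3.47 TPM in library 2 and 3.91 TPM in library 1.

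H2B genes were led by Hist1h2bc, at chr13:23684199-23692908 on the plus strand, with 22.9 TPM in library 2 and 26.2 TPM in library 1, or 27.0% ± 2.6 of the family. Its share was 32.9% ± 5.0 in the second quantification and 41.6% ± 1.8 of expected counts. Hist1h2br had 13.3 and 12.1 TPM, Hist1h2bq had 13.1 and 12.0 TPM, Hist2h2bb had 11.8 and 13.5 TPM, and Hist1h2bg had 9.65 and 6.64 TPM in library 2 and library 1. Hist1h2bc, Hist1h2bq, Hist1h2br, Hist1h2be and Hist1h2bp are the 5 replication-dependent genes with an annotated intron, and the other 62 have single-exon transcripts only. Hist1h2bc and Hist2h2be had no stem-loop match in their annotated transcripts. Hist1h2ba, the testis H2B, was listed at 0. Hist1h2be had 3.46 TPM in library 2 and 4.39 TPM in library 1, Hist1h2bf had 3.07 and 4.37 TPM, and Hist2h2be had 2.70 and 3.26 TPM, each lower in library 2. Hist1h2bl had 2.69 and 1.72 TPM, Hist1h2bk had 1.09 and 2.38 TPM, Hist1h2bn had 1.59 and 1.55 TPM and Hist1h2bb had 1.25 and 0.84 TPM, with no common direction. Below a mean of 1 TPM were Hist1h2bp at 0.78 and 0.48 TPM, Hist3h2ba at 0.55 and 0.41 TPM, Hist1h2bm at 0.48 and 0.30 TPM and Hist1h2bh at 0.41 and 0.29 TPM.

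H3 was the family of the highest single member. H3f3a, at chr1:180800832-180813943 on the minus strand, had 120 TPM in library 2 and 117 TPM in library 1, and ranked 406 by mean TPM among nuclear protein-coding genes. H3f3b, at chr11:116021912-116027962 on the minus strand, had 40.2 and 43.7 TPM; counting protein-coding transcripts only, its mean was 21.6 TPM in place of 42.0 TPM. Both encode H3.3, the form of H3 that is deposited independently of replication by Hira and by Atrx with Daxx. Their translations are identical over 136 residues, while the coding sequences share 76.7% of bases, and 2.44% of the 100-base stretches of H3f3b and 7.73% of those of H3f3a occur in transcripts of another gene. H3f3a held 73.9% ± 1.4 of H3.3 TPM in the first quantification, against 80.6% ± 2.5 in the second, and 84.6% ± 2.6 of protein-coding transcripts in the first. By expected counts in the first, H3f3a held 63.5% ± 3.2. The highest replication-dependent H3 genes were Hist2h3b, with 5.29 and 5.60 TPM in library 2 and library 1, and Hist1h3e, with 5.54 and 4.39 TPM. Hist1h3h had 4.11 and 3.11 TPM, Hist2h3c2 had 2.20 and 2.68 TPM, Hist1h3i had 2.32 and 2.56 TPM and Hist1h3a had 2.07 and 2.02 TPM. Hist1h3f had 2.56 TPM in library 2 and 1.47 TPM in library 1, and Hist1h3b had 2.58 and 1.14 TPM, both higher in library 2. Hist1h3g, Hist1h3d and Hist1h3c lay between 0.26 and 1.33 TPM, and Hist2h3c1, which has all of its stretches in common with other genes, was listed at 0. The coding sequence of H3f3a matched that of Hist1h3e at 77.7% of bases, and the translations differ at 4 of 136 residues.

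All 13 H4 genes give a single translation, and no H4 variant is among the members. Hist1h4h, at chr13:23531050-23531519 on the plus strand, had 82.9 TPM in library 2 and 79.1 TPM in library 1 and held 52.6% ± 0.1 of the family. Its share was 58.5% ± 6.5 in the second quantification and 37.9% ± 0.7 of expected counts. Hist1h4d had 15.7 and 15.9 TPM, Hist1h4c had 13.7 and 14.3 TPM, Hist1h4m had 12.6 and 9.27 TPM, and Hist1h4k had 10.0 and 9.42 TPM. Hist1h4f had 8.08 and 5.97 TPM in library 2 and library 1. The order below Hist1h4h changed in the second quantification, where Hist1h4k had 13.6 TPM in library 2 and 26.9 TPM in library 1, Hist1h4d averaged 10.1 TPM, Hist1h4c 9.28 TPM and Hist1h4f 3.22 TPM. Hist1h4i, Hist2h4, Hist1h4b, Hist1h4a, Hist4h4 and Hist1h4j lay between 1.08 and 3.68 TPM in each library. Some of these values rest on few counts that the estimator split among genes. Hist1h4j had 22.7 counts in library 2 and 31.05 in library 1, and 0.52 and 0.78 TPM in the second quantification. At least 1 TPM in each library was found for 12 of 13 H4 genes, and the exception was Hist1h4n, listed at 0 in library 2 and at 1.95 TPM in library 1. Hist1h4n and Hist1h4m have the same coding sequence, and together they had 12.6 TPM in library 2 and 11.2 TPM in library 1.

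By place, the Hist1 cluster on chromosome 13 held 54 members between positions 21715763 and 23934851, of which 32 were at least 1 TPM in both libraries, with a sum of 337 TPM in library 2 and 332 TPM in library 1. The Hist2 cluster on chromosome 3 held 10 members with 118 and 128 TPM. The Hist3 genes on chromosome 11 summed to 4.98 and 5.53 TPM, and Hist4h4 on chromosome 6 had 1.65 and 1.87 TPM. By annotated 3′ end, the 22 genes with the stem-loop within 100 bases of the end summed to 218 TPM in library 2 and 215 TPM in library 1, and the 22 genes with longer tails summed to 139 and 149 TPM. The 11 replication-dependent genes above 10 TPM came from every such class. Of these, Hist1h1c, Hist1h1e, Hist1h4c and Hist1h4d had long tails, and Hist1h4h, Hist1h4m and Hist2h2aa2 had short ones. Hist1h2bc, Hist1h2bq, Hist1h2br and Hist2h2bb had no match. The leading transcripts of Hist1h2bq and Hist1h2br, and the transcript of Hist2h2bb, had 0 annotated bases after the stop codon. A stem-loop could not be found in these, so the missing match does not show that the genes lack it.

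Many members share sequence with other genes, which leaves the division of those reads to the estimator. For each member, the share of 100-base stretches of its longest protein-coding transcript that also occur in transcripts of another gene was counted. It was 0% for H1f0, H2afv, H2afy, H2afy2, Hist1h4d and Hist2h2be, 7.73% for H3f3a, 29.7% for H2afz, and 100% for Hist2h2aa2, which has stretches in common with Hist2h2aa1 and with the transcript Gm20634 that overlaps Hist2h2aa1. Among the 55 members with a mean of at least 1 TPM, the width of the deposited TPM interval, as a fraction of TPM, had a median of 0.246 for the 15 members with under 10% shared, 0.50 for the 21 members between 10% and 50%, and 1.26 for the 19 members above 50%. Across these 55 genes, which share libraries and sequence, the shared percentage and the interval width had a Pearson r of 0.71 and a Spearman rho of 0.70; genes are not independent replicates. Counts were not held equal across these genes. Hist1h1b, with 0% shared and 25 counts in library 2 and 19 in library 1, had a width of 0.82. Hist2h2aa2, with 100% shared and 1018 and 1157 counts, had a width of 0.25. The part of low counts in this trend was not tested. The level of these intervals is not given in the sources used here.

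The second quantification of the same reads gave 753 TPM in library 2 and 733 TPM in library 1 for all members. These sums were close to the first, but were divided differently among members. Family sums moved too, with a mean of 187 TPM in the first quantification and 210 TPM in the second for H2A. For H2B these means were 90.9 and 73.2 TPM. Hist1h4d, with 0% of stretches shared, had means of 15.8 and 10.1 TPM. The cause of these shifts was not tested. Of the 55 members, 5 (9.09%) differed by 2-fold or more between quantifications in mean TPM plus 1, against 0.656% of 10981 nuclear protein-coding genes. These were Hist1h2ah, Hist1h2bq, Hist1h2br, Hist1h3b and Hist2h2aa1, and all 5 had over 50% of stretches shared. With nothing added to TPM, a setting chosen after seeing the data, 11 of 55 differed by as much, against 0.883% of the same genes, with Hist1h4k, Hist1h4f, Hist1h3h, Hist1h2ag, Hist1h2ap and Hist1h2bk as the further members. Hist2h2aa1 had 7.68 ± 0.98 TPM in the first quantification, against 28.5 ± 1.5 TPM in the second. The sum of Hist2h2aa1 and Hist2h2aa2 was closer, at 83.2 TPM in library 2 and 89.9 TPM in library 1 in the first quantification, against 99.1 and 101 TPM in the second. Hist1h2bq and Hist1h2br summed to 25.2 ± 1.7 TPM in the first quantification, against 9.92 ± 4.79 TPM in the second, so their sum was not stable either. Hist1h2ai had 0.11 TPM in the first quantification, against 8.69 TPM in the second, and Hist1h2bp had 0.63 and 2.74 TPM. The pseudogene Hist1h2al, which is no member, was listed at 18.8 TPM by the first quantification, against 0 by the second, and shares 46 of its 240 stretches with Hist2h2aa1, Hist2h2aa2 or Hist2h2ac.

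**Figure D3:**
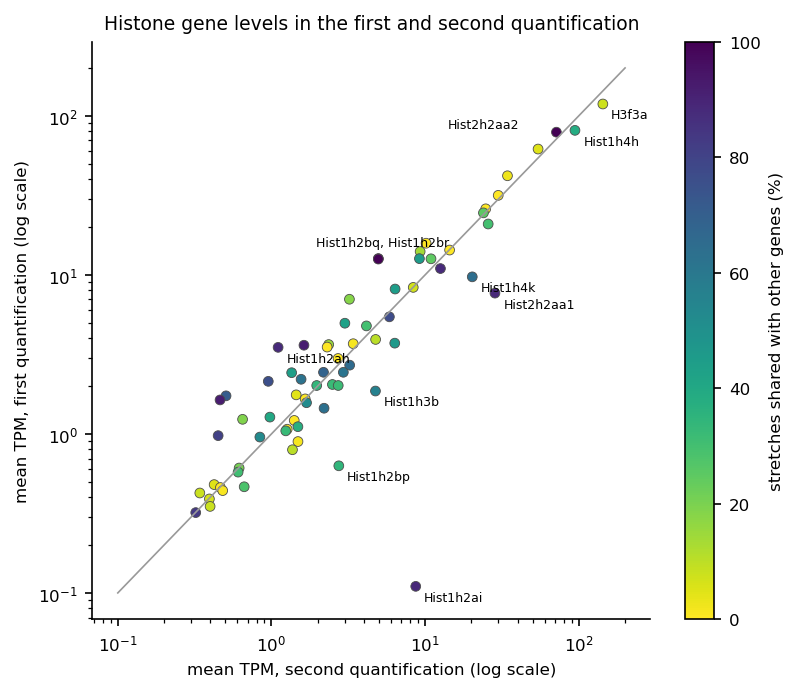
Mean TPM of histone genes in the first (y axis) and second (x axis) quantification, both on log scales; each point is a gene with at least 0.1 TPM in both, coloured by the percentage of its 100-base stretches found in other genes, and the line marks equality. Points far from the line, such as Hist1h2ai at 0.11 and 8.69 TPM, are mostly dark, meaning that much of their sequence is shared.

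The spliced variants were also split among transcripts of their own gene. H3f3a was divided between H3f3a-201 of 888 bases, with 47.5% ± 0.3 of the gene's TPM, and H3f3a-207 of 724 bases, with 46.0% ± 0.5. H3f3b was led by H3f3b-201 with 50.3% ± 6.3 in the first quantification, but by H3f3b-202 with 46.4% ± 8.6 in the second, so its leading form could not be settled. The processed transcript H3f3b-204, which is not annotated as coding, held 44.5% ± 7.8 in the first quantification. H2afv was divided between H2afv-201 of 519 bases, with 56.6% ± 3.9, and H2afv-202 of 1633 bases, with 43.4% ± 3.9, in the first quantification. In the second they held 49.7% ± 2.0 and 50.3% ± 2.0, and by expected counts, not corrected for length, 26.3% ± 3.1 and 73.7% ± 3.1. H2afz was led by H2afz-201 with 77.4% ± 9.1, and H2afy by H2afy-202 with 48.6% ± 0.6, next to the processed transcript H2afy-204 with 40.0% ± 1.3. Of 8 members with several annotated transcripts and a mean of at least 1 TPM, 4 had the same leading transcript in both quantifications, namely H2afy, H2afz, Hist1h2bq and Hist1h2br, and 4 did not, namely H2afv, H3f3a, H3f3b and Hist1h2be.

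**Figure D4:**
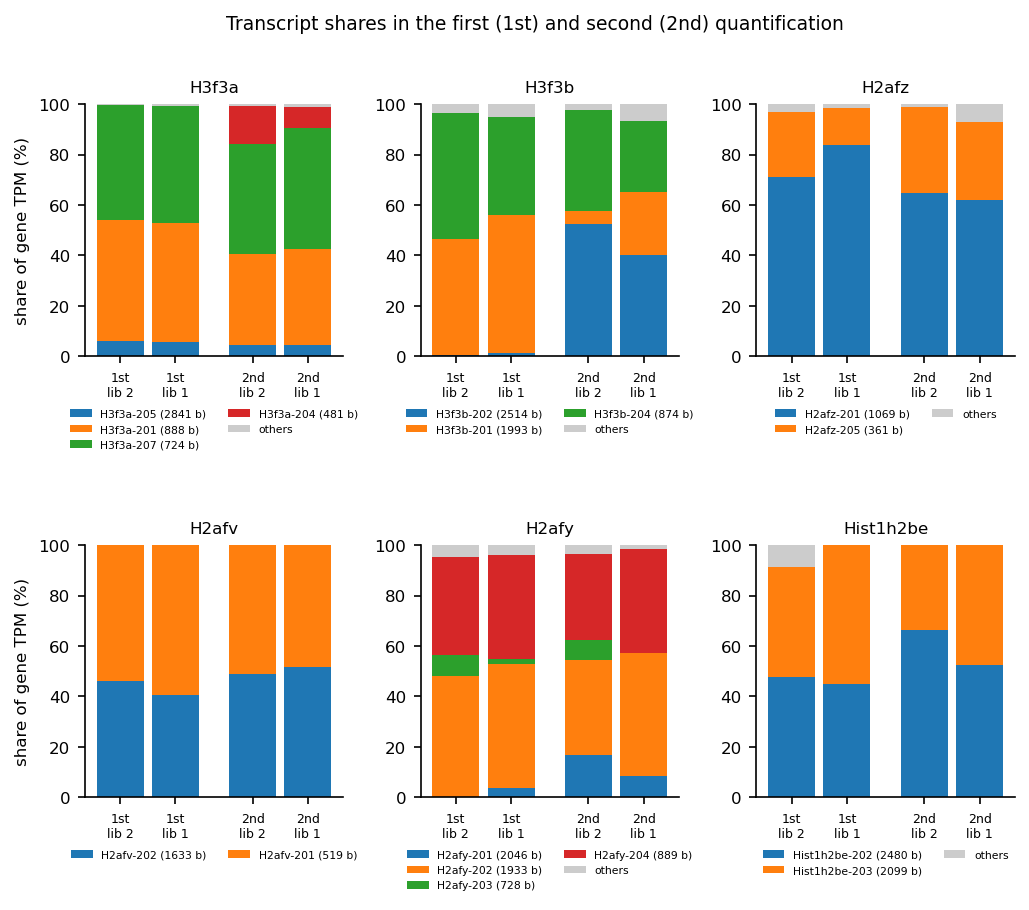
Share of a gene's TPM held by each annotated transcript (stacked, with length in bases) in library 2 and library 1, for the first and the second quantification; forms under 5% in both are grey. H3f3a-201 and H3f3a-207 are the main parts of H3f3a in all 4 bars, while H3f3b-202 is almost absent from the first quantification and large in the second.

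Few members differed by 2-fold between libraries. Of 55 members with at least 10 counts in a library and a mean of at least 1 TPM, 1 was 2-fold or more higher in library 2 (Hist1h2bj, 2.09 TPM in library 2 and 0.46 TPM in library 1, from 23.7 and 5.55 counts), against 0.377% of 11940 genes tested. None was 2-fold or more lower in library 2, against 0.226% of genes tested. Their log2 ratio of library 2 over library 1 had a median of 0.02 and ran between -0.69 and 1.08, beside a median of -0.01 over all genes tested. The exact 95% interval of the ratio of counts scaled to library totals lay above 1 for 7 of 55 members (12.7%), against 12.8% of genes tested, and below 1 for 6 (10.9%), against 10.4%. These shares were near the background. Such intervals cover counting error only, and neither the splitting of shared reads nor variation between samples.

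The members that stood apart by these intervals were of different kinds. Below 1 were Hist1h1c, with a count ratio of 0.87 and an interval of 0.83 to 0.92, Hist1h1e, with 0.78 and 0.70 to 0.86, H3f3b, Hist1h2bc, Hist1h2be and Hist1h2bk. Hist1h1e and Hist1h2be are not fully separate, as their annotated spans overlap on the minus strand of chromosome 13. Of the 1831 stretches of Hist1h1e, 452 occur in other genes, most often in Hist1h2be. Above 1 were H2afv, Hist1h2ad, Hist1h2bg, Hist1h2bj, Hist1h3b, Hist1h3f and Hist1h4m. The replication-dependent H1 genes together had a ratio of 0.86 (0.82 to 0.90), and the replication-dependent H3 genes together had 1.24 (1.09 to 1.41), from 534 counts in library 2 and 462 in library 1. Replication-dependent genes with over 100 bases after the stem-loop had 0.91 (0.88 to 0.94). Without Hist1h1c and Hist1h1e, left out with their low ratios known, the ratio was 1.00 (0.94 to 1.06). Leaving out genes with low ratios had to raise it, so no conclusion on the class is drawn. Genes with the stem-loop within 100 bases of the end had 1.02 (0.97 to 1.08).

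**Figure D5:**
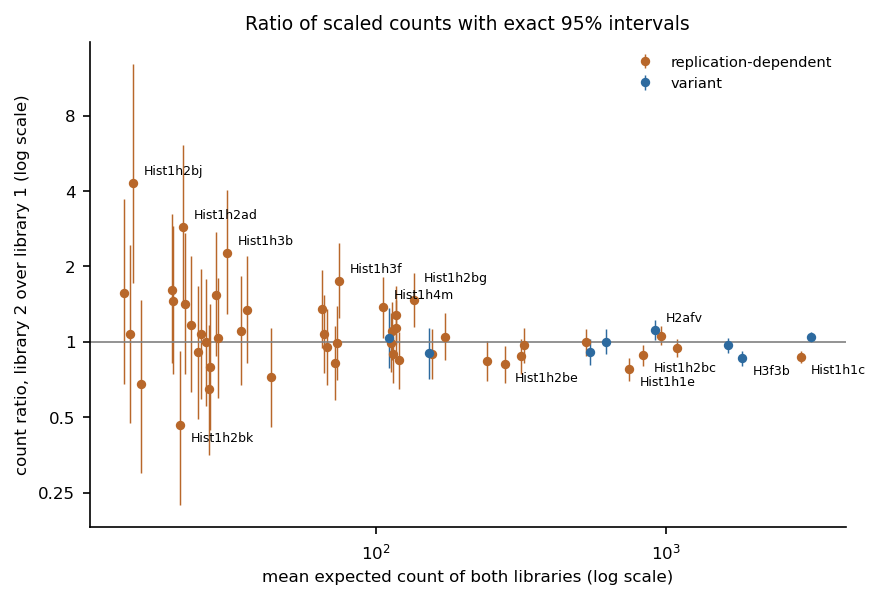
Ratio of expected counts scaled to library totals, library 2 over library 1 (y axis, log scale), against the mean count (x axis, log scale) for 55 histone genes; bars are exact 95% intervals, which cover counting error only, and names mark members whose interval excludes 1. Wide ratios belong to low counts (Hist1h2bj, 23.7 and 5.55 counts), and Hist1h1c and Hist1h1e lie below 1 at high counts.

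Processed pseudogenes of member genes also held counts. Gm8203, which shares all of its 288 stretches with H2afz, had 77.7 counts in library 2 and 8.68 in library 1, or 8.68 and 0.91 TPM. H2afz had 503 counts in library 2 and 592 in library 1, and the sum of H2afz and Gm8203 had 581 and 601, a ratio of 1.04 (0.92 to 1.17). H3f3c, a processed pseudogene with 168 of 312 stretches in common with H3f3a, had 1.51 TPM in library 2 and 1.14 TPM in library 1, and was listed at 0 in the second quantification.

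Most listed genes of dividing cells were below 1 TPM in a library, as were most nuclear protein-coding genes. Of 22 listed genes, 9 were at least 1 TPM in both libraries, against 48.8% of nuclear protein-coding genes. The list had a median of 1.01 TPM in library 2 and 0.755 TPM in library 1. Mki67, the marker of cycling cells, had 0.37 and 0.31 TPM, Top2a had 0.65 and 0.26 TPM, and Ccna2, Ccnb1, Cdk1, Birc5, Aurkb, Bub1, Tk1, Cdt1 and E2f1 also had a mean below 1 TPM. Highest were Gmnn, which restrains replication licensing, at 25.4 and 24.7 TPM, Cenpa at 20.2 and 25.5 TPM, and Pcna, the replication clamp, at 11.9 and 10.5 TPM. By TPM, 17 of 22 were higher in library 2. By the count interval, 4 of 22 lay above 1, namely Top2a, Aurkb, E2f1 and Tk1, and 2 lay below it, namely Mcm3 and Cenpa. Over all 11940 genes tested, 5760 were higher in library 2 by TPM, and intervals lay above 1 for 12.8% and below it for 10.4%. Genes under the filter on low values are in the list but not in that background, and the part of the listed genes in the replication-dependent H3 counts was not tested.

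Of 14 genes listed for processing and regulation of histone mRNA, 12 were at least 1 TPM in both libraries, against 48.8% of nuclear protein-coding genes. The highest were the scaffold Sympk at 24.0 TPM in library 2 and 25.3 TPM in library 1, the helicase Upf1, which acts in histone mRNA decay, at 15.4 and 15.2 TPM, and Dhx9 at 13.5 and 12.6 TPM. Slbp had 4.60 and 3.81 TPM, and Npat, which activates replication-dependent genes in S phase, had 2.56 and 2.13 TPM. Below a mean of 1 TPM were Lsm11, a protein of the U7 particle, at 0.93 and 1.01 TPM, and Zfp473, at 0.01 and 0 TPM. By the count interval, none of the 14 lay above 1, against 12.8% of genes tested. Below 1 lay 2 of the 14, Sympk and Lsm11, against 10.4% of genes tested.

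Of 22 listed histone chaperones and exchange factors, 19 were at least 1 TPM in both libraries, against 48.8% of nuclear protein-coding genes. Nap1l4, Npm1 and Anp32e led the list, at 61.3 and 58.5, 45.3 and 46.5, and 23.5 and 30.5 TPM in library 2 and library 1. Nap1l4 and Npm1 bind core histones, and Anp32e removes H2A.Z from chromatin. The factors that deposit H3.3 were all above 1 TPM, with Atrx at 20.4 and 17.6 TPM, Hira at 6.02 and 6.26 TPM and Daxx at 4.78 and 3.85 TPM. The 3 genes below 1 TPM were Asf1b, at 0.36 and 0.64 TPM, and Chaf1a and Chaf1b, the subunits of the factor that assembles nucleosomes behind replication forks, at 0.62 and 0.47 TPM and at 0.20 and 0.26 TPM. Asf1a, the other form of that chaperone, had 6.70 TPM in library 2 and 9.08 TPM in library 1.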

How the data were processed

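Total RNA from mouse heart was sequenced as 2 directional libraries made from 300 ng of RNA each after ribosomal RNA reduction, with ERCC spike-ins, per the labels. The deposited readme names mm10 and GENCODE M21, with aligner and tool versions not given in the sources used here. Any effect of CAST alleles on the division of reads among copies was not tested. The deposited gene and transcript tables (the first quantification, in the column layout of RSEM) hold expected counts, in which an estimator split shared reads. The TPM values were scaled by the authors to the library total, and the deposited FPKM values served only as an alternative. A deposited transcript table in the layout of kallisto (the second quantification) holds estimated counts and TPM, which were summed per gene.

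The members and lists were chosen with earlier results of these data known. The labels give 1 group, so no p-value was computed. Detection meant at least 1 TPM in both libraries. The log2 ratio was that of TPM plus 1, which understates the ratio of low genes, and genes entered the 2-fold comparison with 10 or more rounded counts in either library and a mean of 1 TPM or more. Count ratios were scaled by total expected counts over annotated genes and carry exact (Clopper-Pearson) 95% intervals, which cover counting error only; reads without molecular identifiers are not independent molecules. A count of 0 allows up to 3 counts. Values were set against the 22015 nuclear protein-coding genes or the 11940 genes that passed the filter. Named members were those of at least 1 TPM, all variants, the 3 highest of each family below that level and those with over 4-fold different quantifications, though not all are printed; named list genes were the 3 highest and those below 1 TPM, and Slbp, Npat, Hira, Atrx, Daxx and Asf1a were named after their values were seen. Stem-loops and shared stretches were read from the GENCODE M21 transcripts, and promoters from RefSeq (GRCm38.p6). R 4.3.3, Python 3.11.15, scipy 1.17.1, Biopython 1.88, pandas 2.3.3, numpy 2.4.6 and matplotlib 3.10.9 were used. Rounded expected counts gave scaling factors in edgeR 4.0.16 (TMM) and DESeq2 1.42.0 as alternatives.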

Additional observations from a re-analysis of the deposited data

How the results depend on the processing

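The replication-dependent share of histone TPM, 64.2%, was 62.6% in the second quantification, 67.1% with protein-coding transcripts only and 54.3% as a share of expected counts. The histone share of nuclear protein-coding TPM, 0.221%, was 0.215% in the second quantification and 0.245% with protein-coding transcripts only. As a share of expected counts, variants held 30.4% of H1, 56.1% of H2A and 90.9% of H3. Variants held 35.8% of H2A in the second quantification, and 34.5% of H2A and 83.8% of H3 with protein-coding transcripts only. Members past 2-fold between libraries numbered 1, but 4 with a pseudocount of 0.1, 2 with no filter on low values and 0 in the second quantification, and 1 under TMM or DESeq2 scaling. The count of detected members, 50, lay between 42 (mean TPM of at least 2) and 62 (mean TPM of at least 0.5) over the alternatives, at 51 in the second quantification and 46 by FPKM, and at 54 without either library. By expected counts the leading class of H2A was thus the variants, not the replication-dependent genes as by TPM. Members with quantifications 2-fold apart numbered 5, and 11 with nothing added to TPM. The leading transcript of H2afv, H3f3a, H3f3b and Hist1h2be changed in the second quantification, and that of H2afv and Hist1h2be also by expected counts. Expected counts are not divided by length, and the cause of the other shifts was not tested. Single gene levels and transcript shares moved by more than the spread between libraries in 20 of 25 results in the second quantification. With 2 libraries, leaving 1 out leaves no spread, and a ratio between libraries cannot be had. No paired analysis was possible because the libraries form a single group. Depth limits members of few counts, such as Hist1h2bj.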

Other observations

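Promoters in the RefSeq table, read over the 250 bases before the start, were found for 70 members. CCAAT, searched on both strands, was in 51 of 62 replication-dependent promoters (82.3%), against 33.8% of all 32851 RefSeq promoters, and among H4 promoters it was in 3 of 12. TATAAA was in 29 of 62 replication-dependent promoters (46.8%), against 12.4% of all. ATTTGCAT, the octamer, was in 13 of 62, against 1.60% of all, and among replication-dependent families it was found in H2A (7 of 18) and H2B (6 of 16) promoters, with 0 in H1, H3 and H4. Of 8 variant promoters, 4 held CCAAT, 1 TATAAA and 1 ATTTGCAT. Some H2A and H2B genes on opposite strands have overlapping promoter windows, such as Hist1h2ah with Hist1h2bk and Hist1h2ae with Hist1h2bg. A match there can be counted for both genes, so these counts are not of separate sites. They are matches of letters and say nothing of factor binding in heart.

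Histone genes outside the rule were listed too. H2afj, an H2A variant gene, had 9.12 TPM in library 2 and 11.4 TPM in library 1. Cenpa, which encodes the centromeric H3, had 20.2 and 25.5 TPM, above every replication-dependent H3 gene. Another 7 genes of that list of 10, among them H1foo, H1fnt, Hils1 and H2bfm, were listed at 0 in both libraries.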
